A study of Mus musculus with 12 samples.

Results

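The Nr4a genes are a small family of orphan nuclear receptors, Nr4a1 (also called Nur77), Nr4a2 (Nurr1) and Nr4a3 (Nor1), and were taken by symbol. All 3 are among the 35496 genes counted, and all 3 were among the 19497 that passed the filter on low counts. They were measured by RNA-seq of the cochlea, where the inner ear turns sound into nerve signals, in inbred FVB/NCrl mice at postnatal day 60. In order of level, 4 libraries came from animals held for 30 min at 70 dB SPL (sound pressure level), the ambient sound that serves as control, 4 from animals in noise of 94 dB and 4 from animals in noise of 105 dB, with RNA taken at once in every group. The labels name no gene change or drug, so strain, age and exposure time are what all groups share. They do not say whether a library held 1 animal or several, so the p-values measure the spread between libraries, which may be technical.

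Unlike most nuclear receptors, Nr4a proteins have a ligand-binding pocket filled by bulky side chains, and their activity is set mainly by how much protein is made and how it is modified. Their genes belong to the immediate early genes, whose transcription starts within minutes of a stimulus and needs no new protein. Calcium and cyclic AMP signalling through CREB, the factor that binds the cyclic AMP response element (CRE), and through MEF2 is known to switch them on. The receptors bind DNA as monomers at the NBRE octamer AAAGGTCA or as dimers. Nr4a1 and Nr4a2, but not Nr4a3, can also pair with the retinoid X receptors. Nr4a1 is known for roles in T cells, monocytes and endothelium, Nr4a2 for the upkeep of dopamine neurons, and Nr4a3 for roles that overlap with those of Nr4a1.

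The promoters are shown because the CRE core motif, CGTCA on either strand, is present in each of them. RefSeq promoter windows (GRCm38.p6, 250 bases before to 50 after the annotated start) were matched for 3 of 3 genes, and the bases before the start that lie outside every GENCODE exon are printed 5′ to 3′ in the direction of the gene, with each CGTCA or its reverse complement TGACG in capitals. They lie at chr15:101266596-101266845 on the plus strand for Nr4a1, chr2:57124004-57124253 on the minus strand for Nr4a2 and chr4:48045055-48045152 on the plus strand for Nr4a3. The RefSeq start of Nr4a1 lies 12577 bases after that of its longest GENCODE transcript, whose exons its printed bases miss, and a GENCODE transcript of Nr4a3 starts 152 bases before the RefSeq start, so 98 bases with 3 of its 4 copies are printed.
Nr4a1: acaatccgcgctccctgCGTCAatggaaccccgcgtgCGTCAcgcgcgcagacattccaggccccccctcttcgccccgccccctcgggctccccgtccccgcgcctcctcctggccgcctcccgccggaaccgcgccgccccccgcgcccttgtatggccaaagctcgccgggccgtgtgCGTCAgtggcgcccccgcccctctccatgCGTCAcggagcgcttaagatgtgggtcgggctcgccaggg
Nr4a2: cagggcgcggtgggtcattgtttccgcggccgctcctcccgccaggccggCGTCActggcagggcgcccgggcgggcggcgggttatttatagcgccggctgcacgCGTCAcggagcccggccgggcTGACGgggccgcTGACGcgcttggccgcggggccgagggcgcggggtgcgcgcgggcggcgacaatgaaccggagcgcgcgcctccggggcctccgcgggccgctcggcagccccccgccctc
Nr4a3: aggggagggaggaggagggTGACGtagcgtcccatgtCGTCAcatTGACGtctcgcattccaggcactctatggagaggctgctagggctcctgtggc

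Each window held 4 copies of the core motif. Across 32851 promoter windows of the same length, 20.8% held at least 1 copy and 0.231%, or 76 windows, held 4 or more. In Nr4a1 all 4 copies read in the direction of the gene, with first bases at -233, -213, -69 and -40 from the start. In Nr4a2 they began at -200 and -144 in that direction, and at -123 and -111 on the opposite strand. In Nr4a3 they began at -213 in the direction of the gene, and at -231, -205 and -147 on the opposite strand. The palindrome TGACGTCA, the full CRE, was in none of the 3 windows and in 1.79% of all windows.

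The bases around the core differed between the genes. All 4 copies in Nr4a1 were the heptamer TGCGTCA, which 2.12% of windows held at least once, and Nr4a1 was the 1 window of 32851 with 3 or more. Nr4a2 and Nr4a3 held none. Nr4a3 instead held TGACGT 3 times, which 0.201% of windows matched or exceeded, and the other two genes held none. Nr4a2 alone held the TATA box hexamer TATAAA (on the opposite strand, from -164 to -159, a hexamer of 13.6% of windows), which overlapped its single match to the MEF2 consensus (3.19% of windows), both searched on both strands. The windows of Nr4a1, Nr4a2 and Nr4a3 were 72.3%, 81.7% and 64.7% G and C, against a median of 52.7% over all windows. The NBRE AAAGGTCA, the AP-1 site TGANTCA and the CArG box of serum response factor were found in none of the 3. TGCGTCA and TGACGT are the core motif with flanking bases seen at its copies in Nr4a1 and Nr4a3. Their low shares are therefore no independent measure of how these windows differ from others. All these matches are descriptions of the letters in these windows.

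**Figure D1:**
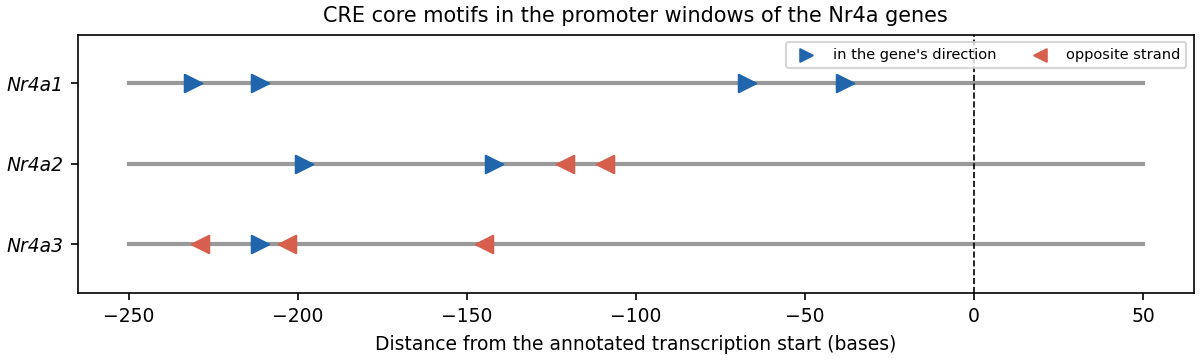
Positions of the CRE core motif in the promoter window of each Nr4a gene, in bases from the annotated transcription start (dashed line). Triangles pointing right are copies in the direction of the gene and triangles pointing left are copies on the opposite strand; each gene has 4, and those of Nr4a1 lie farther apart, from -233 to -36, than those of Nr4a2 and Nr4a3.

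The 70 dB libraries held 31141706 to 42317781 counts, the 94 dB libraries 32302796 to 38733490 and the 105 dB libraries 32057388 to 40239711. A floor of 3 counts was 0.0703 to 0.0966 CPM (counts-per-million values, scaled by TMM factors), which covers counting error only. Cochlear markers were present in every library, with the cochlin gene Coch at 5217 to 7835 CPM, the gap junction gene Gjb2 at 491 to 761 and the hair cell synapse gene Otof at 34.2 to 46.2. Slc26a5, the prestin gene of outer hair cells, was low at 0.142 to 0.558 CPM. Mitochondrially encoded transcripts made up 5.36 ± 0.25%, 3.13 ± 0.49% and 4.77 ± 0.43% of the counts at 70, 94 and 105 dB (SD, n = 4 each). Replicates 3 and 4 at 94 dB had the lowest mitochondrial shares (2.68% and 2.73%) and the highest haemoglobin shares (2.90% and 2.95%). For the Nr4a genes, the list of other nuclear receptors and the counts over all genes, results at 94 against 70 dB are therefore also given without them. Other calls that involve 94 dB are from all 4 of its libraries. Genes called at 94 against 70 dB numbered 5085 with all 4 and 1610 without replicates 3 and 4. Replicate 3 at 105 dB was close to those replicates in haemoglobin, at 2.89%, but not in its mitochondrial share, at 4.44%.

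Nr4a1 (ENSMUSG00000023034; mm10 chr15:101254269-101274795, plus strand, 4 annotated transcripts) was the most abundant member in every library. Its 70 dB libraries had 31.9, 30.7, 55.5 and 25.8 CPM in replicates 1 to 4. Its 94 dB libraries had 179, 162, 178 and 137 CPM, and its 105 dB libraries had 209, 188, 166 and 212 CPM. Every library of either noise group lay above every 70 dB library, and the 94 and 105 dB libraries overlapped. The 70 dB libraries spread over a 2.16-fold range, with replicate 3 the highest, while the 105 dB libraries spread over a 1.28-fold range.

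Nr4a1 averaged 164 ± 19.4 CPM at 94 dB and 36.0 ± 13.3 CPM at 70 dB (SD, n = 4), a 4.56-fold rise (95% interval 3.29 to 6.33; log2 fold change 2.19, SE 0.21, adjusted p = 1.09e-04). It averaged 193 ± 21.4 CPM at 105 dB and 36.0 ± 13.3 CPM at 70 dB (SD, n = 4), a 5.38-fold rise (95% interval 3.86 to 7.48; log2 fold change 2.43, SE 0.22, adjusted p = 1.55e-04). Among all 19497 genes this placed it at rank 17 by size of rise at 94 dB and at rank 14 at 105 dB. The background differed widely between these comparisons: 13.9% of genes were called higher at 94 dB and 1.11% at 105 dB (26.1% and 1.62% in either direction, with 12.2% and 0.508% lower). At 105 dB 217 genes were higher and 99 lower with TMM factors, against 189 higher and 135 lower with upper-quartile factors. In bulk tissue, more RNA per cell and more cells of a type that holds the transcript cannot be told apart.

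Nr4a3 (ENSMUSG00000028341; mm10 chr4:48045153-48086447, plus strand, 4 annotated transcripts) followed Nr4a1 at a lower level. Its 70 dB libraries had 4.71, 6.93, 10.4 and 3.17 CPM in replicates 1 to 4. Its 94 dB libraries had 20.7, 20.5, 21.8 and 22.7 CPM, and its 105 dB libraries had 28.7, 27.8, 20.2 and 29.0 CPM. Again no noise library reached down to a 70 dB library, and at 105 dB replicate 3 lay below all 4 of the 94 dB libraries. The 70 dB spread was the widest of the family at 3.28-fold, and replicates 3 and 4 were its highest and lowest libraries, as they were for Nr4a1.

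Nr4a3 averaged 21.4 ± 1.03 CPM at 94 dB and 6.30 ± 3.13 CPM at 70 dB (SD, n = 4), a 3.40-fold rise (95% interval 2.21 to 5.22; log2 fold change 1.76, SE 0.28, adjusted p = 0.00152). At 105 dB it averaged 26.4 ± 4.18 CPM against 6.30 ± 3.13 CPM at 70 dB (SD, n = 4), a 4.20-fold rise (95% interval 2.73 to 6.45; log2 fold change 2.07, SE 0.28, adjusted p = 0.00341). It ranked 42 by size of rise at 94 dB and 21 at 105 dB. Without 70 dB replicate 3, the rises at 105 dB were 5.33-fold for Nr4a3 and 6.59-fold for Nr4a1, so that library lowered both.

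Nr4a2 (ENSMUSG00000026826; mm10 chr2:57106830-57124003, minus strand, 6 annotated transcripts) had smaller fold changes. Its 70 dB libraries had 12.9, 8.11, 12.8 and 8.53 CPM in replicates 1 to 4. Its 94 dB libraries had 17.6, 14.6, 15.8 and 11.5 CPM, and its 105 dB libraries had 17.7, 13.6, 13.4 and 17.4 CPM. Replicate 4 at 94 dB lay below 70 dB replicates 1 and 3, so those groups overlapped, while every 105 dB library lay above every 70 dB library, by 0.499 CPM at the closest. The 70 dB libraries fell into a higher and a lower pair, and so did the 105 dB libraries.

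Nr4a2 averaged 14.9 ± 2.56 CPM at 94 dB and 10.6 ± 2.63 CPM at 70 dB (SD, n = 4), a 1.40-fold difference (95% interval 1.09 to 1.81; log2 fold change 0.49, SE 0.17) with an adjusted p of 0.049998, which was the highest of the 5085 genes called. That call ended in 12 of 22 alternatives, with adjusted p between 0.0113 and 0.121 over all 22. Without 94 dB replicates 3 and 4 the fold was 1.52 (adjusted p = 0.0796). At 105 dB Nr4a2 averaged 15.5 ± 2.34 CPM against 10.6 ± 2.63 CPM at 70 dB (SD, n = 4), a 1.47-fold difference (95% interval 1.14 to 1.89; log2 fold change 0.55, SE 0.17) that did not pass (adjusted p = 0.122). By DESeq2 it passed there (adjusted p = 0.0304). Groups that did not overlap, with the noise group higher, were found in 5.78% of all genes at 105 dB and in 13.0% at 94 dB.

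**Figure D2:**
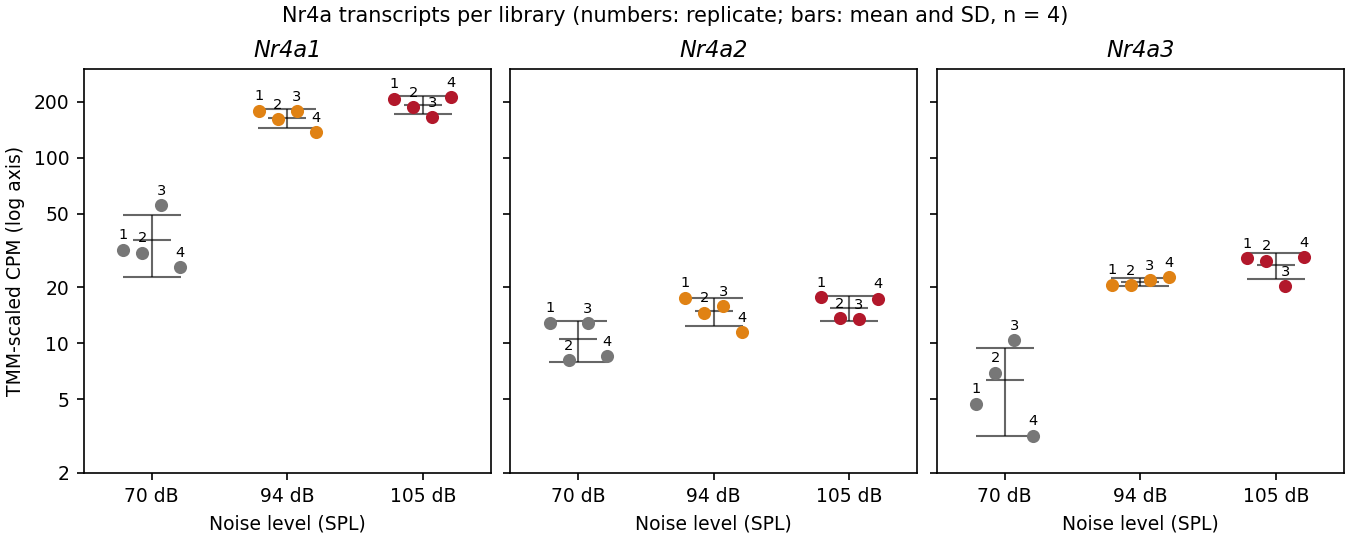
TMM-scaled CPM of each Nr4a gene (log axis) in the 4 libraries of each noise level, numbered by replicate, with the mean and SD as bars. The noise libraries of Nr4a1 (137 to 212 CPM) and Nr4a3 (20.2 to 29.0 CPM) sit clear of their 70 dB libraries, while those of Nr4a2 (11.5 to 17.7 CPM) sit just above or among them.

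Between 105 and 94 dB no member was called, by edgeR or DESeq2. In the edgeR fit of all 12 libraries no unadjusted p was under 0.05 (0.269, 0.708 and 0.274 for Nr4a1, Nr4a2 and Nr4a3). Of all genes, 17.3% were called in that fit (8.06% higher and 9.23% lower) and 31.5% had an unadjusted p under 0.05. DESeq2 called 25.2% of the 16448 genes to which it gave an adjusted p. Without 94 dB replicates 3 and 4 the share called was 1.07%, and the adjusted p of Nr4a1, Nr4a2 and Nr4a3 was 0.800, 0.933 and 0.693. Nr4a1 was 1.18-fold of its 94 dB level at 105 dB (95% interval 0.863 to 1.61; adjusted p = 0.470). Nr4a3 was 1.23-fold (95% interval 0.825 to 1.85; adjusted p = 0.476). Nr4a2 was 1.05-fold (95% interval 0.812 to 1.35; adjusted p = 0.838). The intervals of this fit of all 12 libraries thus allow a further rise of up to 1.61-fold in Nr4a1 or 1.85-fold in Nr4a3. They also allow a small fall. Their width draws on the spread of the ambient libraries too, with an SE of 0.20 for Nr4a1 and 0.26 for Nr4a3. In a fit of only the 8 libraries compared, the log2 fold change of Nr4a1 was 0.24 (SE 0.099, adjusted p = 0.115). That of Nr4a3 was 0.30 (SE 0.11, adjusted p = 0.0679), so neither was called there.

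**Figure D3:**
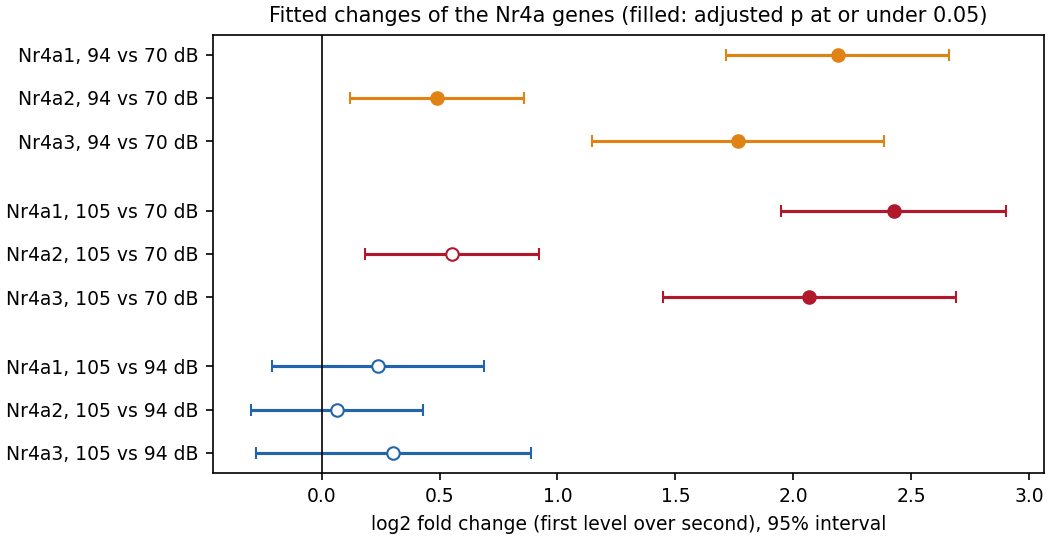
Fitted log2 fold changes of the Nr4a genes with 95% intervals, first level over second, for the 3 comparisons of noise levels; filled points passed an adjusted p of 0.05. Nr4a1 and Nr4a3 lie near 2 against 70 dB, Nr4a2 lies near 0.5, and the intervals of all 3 genes span 0 between 105 and 94 dB.

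Whether the members moved by different amounts was measured as the log2 ratio of their counts within a library, which no scaling of the library affects. The ratio does not remove trends on GC content or transcript length, in which the members differ. With those trends removed, the log2 fold changes of Nr4a1, Nr4a2 and Nr4a3 at 94 dB were 2.01, 0.56 and 1.85, against 2.19, 0.49 and 1.76 in the main fit. At 105 dB they were 2.43, 0.58 and 2.11, against 2.43, 0.55 and 2.07. Nr4a1 to Nr4a2 averaged 3.47 ± 0.10 at 94 dB and 1.73 ± 0.36 at 70 dB (SD, n = 4), a difference of 1.74, or 3.34-fold. At 105 dB the ratio averaged 3.64 ± 0.10 against 1.73 ± 0.36 at 70 dB, a difference of 1.91, or 3.76-fold. Nr4a3 to Nr4a2 was higher by 1.39 at 94 dB and by 1.61 at 105 dB than at 70 dB. In these 4 comparisons no noise library overlapped a 70 dB library, and the two-sided exact permutation p was 0.0286, the smallest that 70 assignments can give, with an adjusted p of 0.0643 over the 9 ratio tests. None of the 9 passed after adjustment. The 4 at the smallest p could have passed only if more of the 9 had reached it too. Their missing the threshold thus rests on having 4 libraries per group together with the adjustment over 9 tests.

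Nr4a3 to Nr4a1 held closer to a common ratio. It averaged -2.93 ± 0.23 at 94 dB and -2.58 ± 0.38 at 70 dB (SD, n = 4), a difference of -0.35 (exact permutation p = 0.200, adjusted p = 0.294). At 105 dB it averaged -2.88 ± 0.12 against -2.58 ± 0.38 at 70 dB, a difference of -0.30 (exact permutation p = 0.229, adjusted p = 0.294). The difference of 105 dB over 94 dB was 0.05 (exact permutation p = 0.743). The libraries of all 3 levels overlapped.

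**Figure D4:**
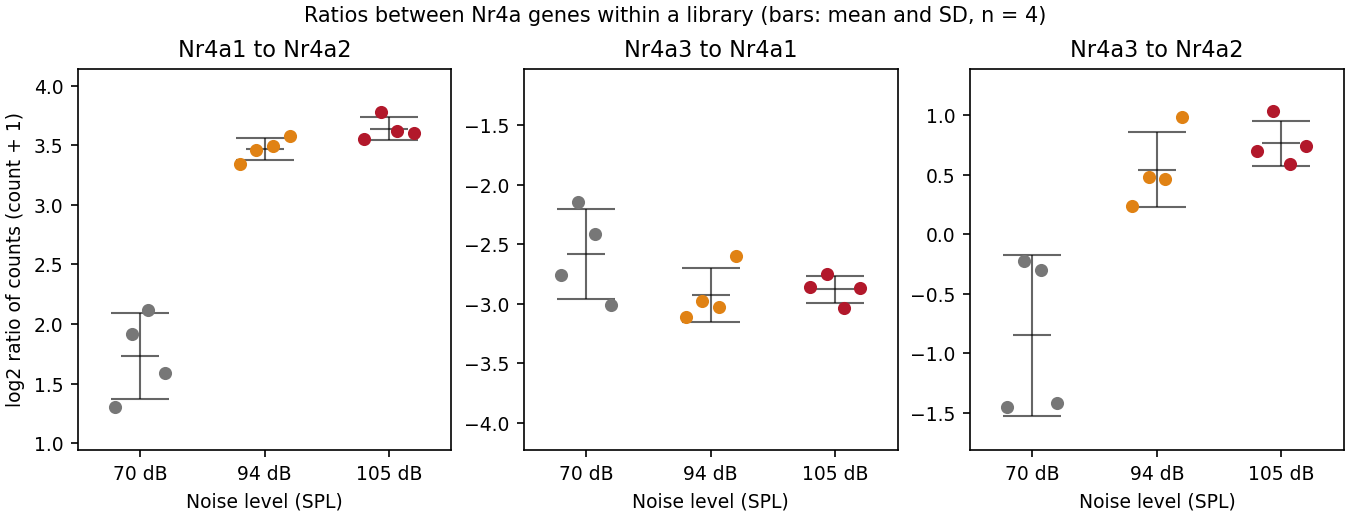
Log2 ratios of counts (count + 1) between pairs of Nr4a genes within each library, by noise level, with the mean and SD as bars; each panel spans the same range of log2 units. Both ratios to Nr4a2 are higher in every noise library than in every 70 dB library, while Nr4a3 to Nr4a1 overlaps between levels.

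Levels of different genes were compared per length, as TPM (abundance relative to all transcripts, from the counts and the annotated exon length). At 70, 94 and 105 dB Nr4a1 averaged 30.0, 127 and 152 TPM, Nr4a2 averaged 7.64, 9.96 and 10.6 TPM, and Nr4a3 averaged 3.06, 9.64 and 12.2 TPM. Nr4a1 made up 73.3 ± 2.78%, 86.5 ± 0.68% and 87.0 ± 0.41% of the family's transcripts at the 3 rising levels (SD, n = 4 each). The share of Nr4a2 was 19.4 ± 4.15%, 6.75 ± 0.48% and 6.03 ± 0.40% at the 3 levels, and that of Nr4a3 was 7.36 ± 2.05%, 6.72 ± 1.07% and 6.95 ± 0.53%. Nr4a2 stood above Nr4a3 in all 4 of the 70 dB libraries by this measure. At 94 dB the ranges of these 2 genes overlapped, with Nr4a2 at 7.12 to 12.5 TPM and Nr4a3 at 9.45 to 9.98 TPM. At 105 dB they overlapped too, with Nr4a2 at 8.54 to 12.3 TPM and Nr4a3 at 8.72 to 13.7 TPM.

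Of the 40 nuclear receptor genes tested, Nr4a1 and Nr4a3 were the 2 that rose at 105 dB by edgeR. Of 46 other nuclear receptor genes, 37 passed the filter, and at 105 dB 0 of these rose and 1 fell, 2.70% against 1.62% of all genes. By an unadjusted p under 0.05 the number was 4, against 18.7% of all genes. DESeq2 called 2, against 5.54% of the 16072 genes to which it gave an adjusted p. The list was thus near the background. The gene that fell was Nr1d1, the circadian repressor REV-ERBα, with 95.1 ± 3.67 CPM at 105 dB and 150 ± 24.5 CPM at 70 dB (SD, n = 4; log2 fold change -0.66, adjusted p = 6.40e-04). Nr1d1 overlaps the receptor gene Thra on the opposite strand, and reads of the pair cannot be told apart if strand was not used. The second DESeq2 call was Vdr, the vitamin D receptor, with 94.7 ± 10.9 CPM at 105 dB and 74.4 ± 9.15 CPM at 70 dB (SD, n = 4; log2 fold change 0.35, edgeR adjusted p = 0.0813).

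At 94 dB the rest of the superfamily moved more, as did the transcriptome. There 7 of the 37 other receptors rose and 6 fell, a share of 35.1% against 26.1% of all genes, with a median log2 fold change of 0.046 against -0.018 over all genes. The largest changes, named after their values were seen, were rises of Esrra (1.19), an estrogen-related receptor that drives mitochondrial genes, Nr2f6 (0.96) and the retinoid X receptor Rxrb (0.69) and a fall of Nr1d1 (-0.68). With trends on GC content and transcript length removed, 7 of the 37 were called, 18.9% against 16.1% of all genes, and with 94 dB replicates 3 and 4 left out 6 were, 16.2% against 7.97%. Between 105 and 94 dB 3 of the 37 were higher and 8 lower, 29.7% against 17.3% of all genes, Esrra among them at -1.06 (adjusted p = 5.35e-04), and none of the 3 Nr4a genes was called.

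By mean TPM among the 40 nuclear receptor genes tested, Nr4a1 ranked 11 at 70 dB, 2 at 94 dB and 1 at 105 dB. Nr1d1 ranked 1 at 70 dB with a mean of 143 TPM and 3 at 105 dB with 85.0 TPM. At 105 dB the lowest library had 122 TPM for Nr4a1, above the 111 TPM of the highest library for Nr1h2, the liver X receptor gene ranked 2 there and named for that rank after the values were seen. Nr4a2 ranked 26, 22 and 23 and Nr4a3 ranked 28, 23 and 21 at 70, 94 and 105 dB.

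**Figure D5:**
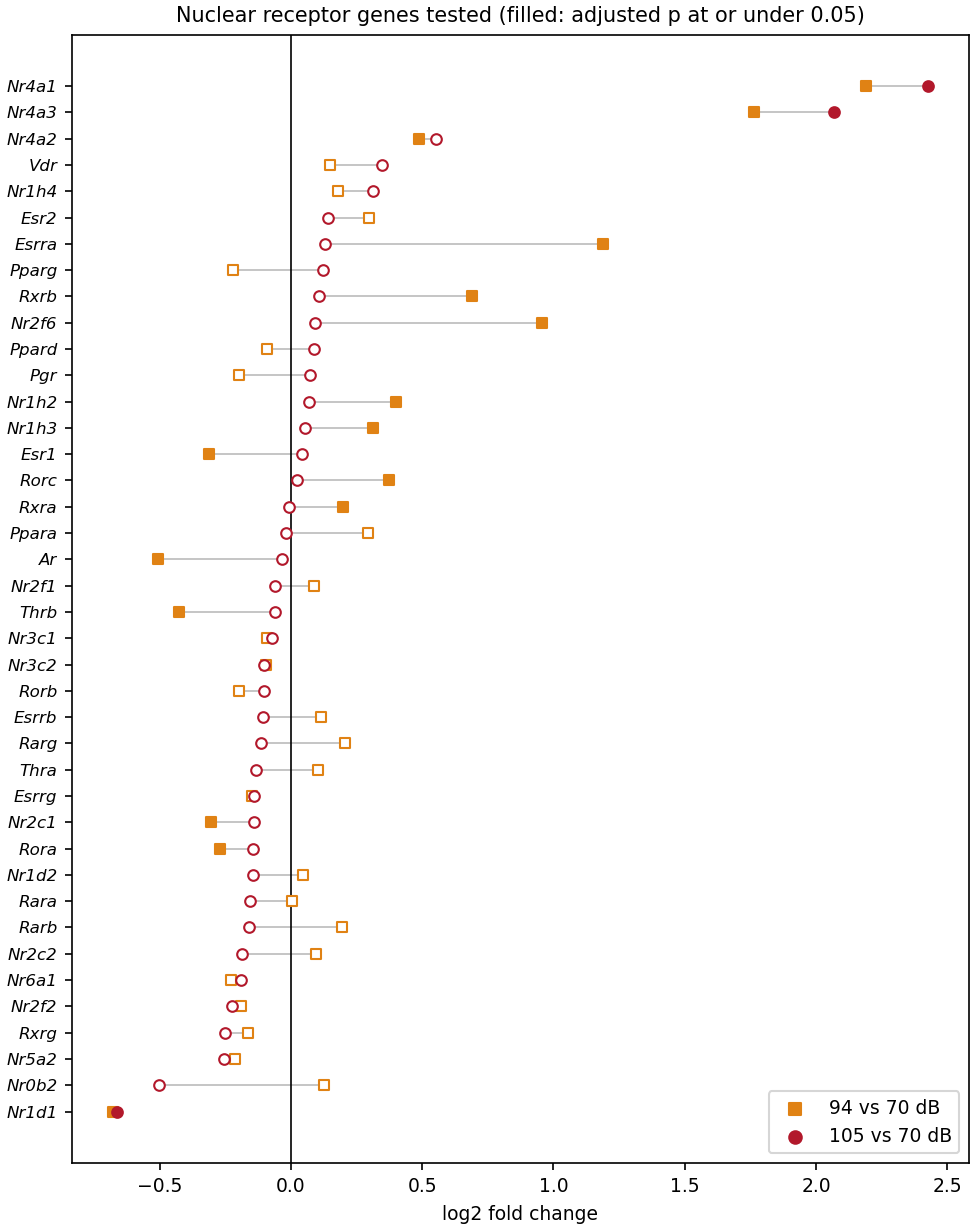
Log2 fold changes of the 40 nuclear receptor genes tested, 94 against 70 dB (squares) and 105 against 70 dB (circles), in order of the second; filled symbols passed an adjusted p of 0.05, and both comparisons share the 70 dB libraries. Nr4a1 (2.19 and 2.43) and Nr4a3 (1.76 and 2.07) lie apart from the rest, Nr4a2 (0.49 and 0.55) has rank 3 at 105 dB, and Nr1d1 is the only filled circle below 0.

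Most of the other immediate early genes rose at 94 dB. Of 48 tested, 34 rose and 0 fell at 94 dB, and 25 rose and 0 fell at 105 dB. This was 70.8% and 52.1% of the list, against 26.1% and 1.62% of all genes, with median log2 fold changes of 0.69 and 0.56 against -0.018 and -0.0039 over all genes. Earlier results of these data had already shown this list to rise, so its direction is no independent evidence. Fosb, a subunit of the AP-1 transcription factor, averaged 7.77 ± 0.85 CPM at 105 dB and 1.25 ± 0.47 CPM at 70 dB (SD, n = 4; log2 fold change 2.62, adjusted p = 1.06e-06). Gadd45g, a growth arrest and stress gene, rose by 1.58 on the log2 scale at 94 dB and by 1.58 at 105 dB. Ccn1, a secreted matrix protein gene, rose by 1.75 and 1.72. The MAP kinase phosphatase gene Dusp1 rose by 1.70 and 1.82, and it overlaps Ergic1 on the other strand. Between 105 and 94 dB 1 of the 48 was higher and 4 were lower, 10.4% against 17.3% of all genes. The 1 higher was Fosb, with 7.77 ± 0.85 CPM at 105 dB and 4.11 ± 0.57 CPM at 94 dB (SD, n = 4; log2 fold change 0.92, adjusted p = 0.00483).

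Nr4a1 and Nr4a3 were among the genes most like each other. Likeness was measured over the 12 libraries as the root mean square difference of log2 CPM, each gene set to 0 at its 70 dB mean, among 14745 genes. The 5 genes most like Nr4a1 were Apold1, an endothelial early response gene, at 0.311, Fos at 0.323, Nr4a3 at 0.351, the stress-induced repressor Atf3 at 0.370 and the clock gene Per1 at 0.373. Among those most like Nr4a3 were Per1 at 0.315, the glucocorticoid-induced leucine zipper gene Tsc22d3 at 0.347, Nr4a1 at 0.351 and Atf3 at 0.352. Nr4a2 lay farther from both, with a difference of 1.504 from Nr4a1 and 1.29 from Nr4a3. These differences gave it rank 210 for Nr4a1 and rank 216 for Nr4a3, still among the nearer of the 14745 genes. Ranked by likeness to Nr4a2, Nr4a1 came at 14704 and Nr4a3 at 14674. These values describe 12 libraries whose noise groups share their 70 dB reference.

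The genes most like Nr4a2 were smaller risers. They were Egr2 at 0.175, a zinc finger factor that also specifies myelinating Schwann cells, Spsb1 at 0.183, Npas4, a calcium-dependent neuronal early response gene, at 0.202, the choline kinase gene Chka at 0.214 and Gprc5a at 0.222. Egr2 averaged 37.8 ± 5.56 CPM at 105 dB and 25.5 ± 6.46 CPM at 70 dB (SD, n = 4; log2 fold change 0.57, adjusted p = 0.0703), and 36.1 ± 1.72 CPM at 94 dB (log2 fold change 0.50, adjusted p = 0.0229). Npas4 showed log2 fold changes of 0.50 at 105 dB (adjusted p = 0.0765) and 0.41 at 94 dB (adjusted p = 0.0340). Gprc5a showed 0.56 at 105 dB (adjusted p = 0.0539) and 0.50 at 94 dB (adjusted p = 0.0162). By edgeR these 3, like Nr4a2, passed at 94 dB and missed the threshold at 105 dB. They were picked for their likeness to Nr4a2 over these same libraries, so values near those of Nr4a2 are no separate evidence. DESeq2 called Egr2 and Npas4 at 105 dB, and with 1 library left out the adjusted p at 94 dB reached 0.0637 for Egr2, 0.102 for Npas4 and 0.0685 for Gprc5a. Set against 94 dB, the log2 fold changes of the 3 at 105 dB were 0.07, 0.08 and 0.06 (adjusted p = 0.802, 0.720 and 0.809 for Egr2, Npas4 and Gprc5a). Spsb1 (0.62, adjusted p = 0.00229) and Chka (0.50, adjusted p = 0.0101) passed at 105 dB as well as at 94 dB, and both overlap a predicted gene on the other strand.

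Among 34 upstream regulators of Nr4a transcription, 2 rose and 0 fell at 105 dB, 5.88% against 1.62% of all genes, and 6 rose and 8 fell at 94 dB, 41.2% against 26.1%. Sik1, a kinase that is induced by CREB and restrains its coactivators, had 113, 120, 107 and 121 CPM at 105 dB, against 36.8, 42.1, 47.5 and 32.4 CPM at 70 dB. These groups were far apart, and its log2 fold change was 1.54 at 105 dB (adjusted p = 2.05e-07) and 1.51 at 94 dB (adjusted p = 2.14e-07). Crem, whose products repress or activate CRE sites, had 22.2, 21.9, 22.8 and 21.6 CPM at 105 dB, against 14.3, 17.6, 19.3 and 13.3 CPM at 70 dB. It rose at 105 dB (log2 fold change 0.46, adjusted p = 0.0445), and its adjusted p without 1 library was between 0.0142 and 0.131. At 94 dB Crem averaged 17.0 ± 1.58 CPM against 16.1 ± 2.80 CPM at 70 dB (SD, n = 4; adjusted p = 0.649), and it was higher at 105 than at 94 dB (log2 fold change 0.38, adjusted p = 0.0254). Crem overlaps a predicted gene on the opposite strand.

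EdgeR called none of Creb1, Srf and Elk1 at 105 dB, and DESeq2 called Srf and Elk1. Creb1, the gene of the CRE-binding factor, chosen for that role with its values known, averaged 68.3 CPM at 105 dB and 63.5 CPM at 70 dB (log2 fold change 0.10, adjusted p = 0.522). Srf, the serum response factor gene, averaged 55.4 ± 2.43 CPM at 105 dB and 44.1 ± 7.11 CPM at 70 dB (SD, n = 4; log2 fold change 0.33, adjusted p = 0.0893), while at 94 dB it rose (0.44, adjusted p = 0.00347). Elk1, a partner of serum response factor, averaged 10.8 ± 2.33 CPM at 105 dB and 15.9 ± 2.5 CPM at 70 dB (SD, n = 4; log2 fold change -0.55, adjusted p = 0.122) and was lower at 105 than at 94 dB (-0.76, adjusted p = 0.00960). Srf and Elk1 each overlap other genes. At 94 dB the calcineurin gene Ppp3ca (-0.44), the protein kinase A gene Prkacb (-0.48) and Camk4 (-0.48) were among the 8 that fell, and were named after their values were seen.

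Of 23 partners and coregulators of Nr4a proteins, 0 were called at 105 dB by edgeR and 0 by DESeq2, with 5 at an unadjusted p under 0.05. By these rules 1.62% of all genes, 5.54% of genes with a DESeq2 adjusted p and 18.7% of all genes passed. At 94 dB 6 rose and 4 fell, 43.5% against 26.1% of all genes. The 4 genes with the smallest p at 105 dB were Trim28, Rps6ka3, Stk11 and Mapk3, with log2 fold changes of 0.22, -0.20, 0.19 and -0.25 and adjusted p of 0.134, 0.165, 0.172 and 0.189. Stk11, the kinase LKB1 that Nr4a1 is known to hold in the nucleus, rose at 94 dB (0.60, adjusted p = 4.05e-05), and it overlaps Cbarp. Rps6ka3, the kinase RSK2, fell at 94 dB (-0.24, adjusted p = 0.0236), a difference that turned its sign once trends on GC content and length were removed (adjusted p = 0.925).

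Of 24 genes described as Nr4a targets in other tissues, 21 were tested. At 105 dB 2 rose and 0 fell, 9.52% against 1.62% of all genes, and at 94 dB 3 rose and 3 fell, 28.6% against 26.1%. Nfkbia, which encodes the inhibitor IκBα of NF-κB, averaged 130 ± 2.93 CPM at 105 dB and 57.8 ± 4.96 CPM at 70 dB (SD, n = 4; log2 fold change 1.16, adjusted p = 2.05e-07). Nfkbia has many other known inducers. Pdk4, a brake on pyruvate oxidation, averaged 101 ± 10.4 CPM at 105 dB and 74.6 ± 17.5 CPM at 70 dB (SD, n = 4; adjusted p = 0.147). Ret, a receptor tyrosine kinase gene, averaged 8.05 ± 2.57 CPM at 105 dB and 30.6 ± 35.3 CPM at 70 dB (SD, n = 4; adjusted p = 0.189), where 70 dB replicate 4 had 83.4 CPM and the other 70 dB libraries at most 16.9 CPM. DESeq2 called Pdk4 and Ret at 105 dB.

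No annotated gene overlaps a member, and of 17 within 100 kb, 11 were in the count table and 9 were tested. At 105 dB 0 of the 9 were called by edgeR and 0 by DESeq2, with 0 at an unadjusted p under 0.05. By these rules 1.62% of all genes, 5.54% of genes with a DESeq2 adjusted p and 18.7% of all genes passed. At 94 dB 4 of the 9 were called, 44.4% against 26.1% of all genes, and between 105 and 94 dB 3 were, 33.3% against 17.3%. Grasp, a scaffold protein gene 21513 bp from Nr4a1, averaged 8.27 ± 0.65 CPM at 105 dB and 7.96 ± 1.43 CPM at 70 dB (SD, n = 4; log2 fold change 0.06, adjusted p = 0.852). Atg101, an autophagy initiation gene 9477 bp from Nr4a1 on the other side, averaged 28.1 ± 2.58 CPM at 105 dB and 23.8 ± 2.34 CPM at 70 dB (SD, n = 4; log2 fold change 0.24, adjusted p = 0.270). Stx17, an autophagosome fusion gene 38468 bp from Nr4a3, had a log2 fold change of -0.023 (adjusted p = 0.867). At 94 dB Grasp (0.71, adjusted p = 0.00119), the transcript A330009N23Rik that overlaps it on the other strand (1.31, adjusted p = 0.0226) and Atg101 (0.54, adjusted p = 0.00314) rose, and Stx17 fell (-0.24, adjusted p = 0.00834). With trends on GC content and length removed, the adjusted p at 94 dB was 0.0549 for Grasp, 0.0784 for Atg101 and 0.394 for Stx17. A330009N23Rik was low, with 0.715 ± 0.243 CPM at 94 dB and 0.285 ± 0.133 CPM at 70 dB (SD, n = 4). With 1 library left out its adjusted p at 94 dB reached 0.0777. No neighbour of Nr4a2 was tested.

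Across all genes with a single promoter window, the share that rose at 105 dB was set beside the number of CRE core motifs. It was 1.17% of 7760 genes with no copy, 1.54% of 2277 with 1, 1.47% of 679 with 2, 2.67% of 150 with 3 and 6.0% of 50 with 4 or more. The last class held 3 risers, which were Nr4a1, Nr4a3 and Coq10b, a coenzyme Q binding protein gene named after its value was seen (log2 fold change 0.70, adjusted p = 0.00212). Without the 3 Nr4a genes it was 1 of 47, or 2.13%, so the value of this class rests on the members themselves. At 94 dB 12 of those 47 rose (25.5%) and 9 fell, against 14.2% higher and 12.3% lower among genes with no copy. The median G and C content of the windows also differed between the classes, from 59.0% with no copy to 65.3% with 4 or more.

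Markers of cell types that the tissue could hold were measured beside these results, in 12 lists of 12 genes each, with 11 erythroid genes measured. No marker measured was at 0 in all libraries of a level. Their calls stand beside 26.1% of all genes at 94 dB, 1.62% at 105 dB and 17.3% between 105 and 94 dB. None of the hair cell markers was called in any comparison by edgeR. At 94 dB 3 had an unadjusted p under 0.05 (38.3% of all genes) and DESeq2 called 2 (30.9% of genes with a DESeq2 adjusted p). At 105 dB the same rules gave 2 and 0 (18.7% and 5.54%). Between 105 and 94 dB they gave 0 and 0 (31.5% and 25.2%). The summed level of the hair cell markers was 266 to 285, 265 to 281 and 267 to 273 CPM at 70, 94 and 105 dB. Supporting cell markers summed to 1493 to 1711 CPM at 94 dB, below the 1825 to 1945 CPM at 70 dB without overlap, and to 1757 to 1889 CPM at 105 dB. Of these markers 3 were higher and 3 lower at 94 dB, again 3 and 3 between 105 and 94 dB, and by edgeR 0 were called at 105 dB, with 4 at an unadjusted p under 0.05 and 1 by DESeq2.

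Among the other cochlear lists, spiral ganglion neuron markers summed to 2830 to 3589, 2878 to 3369 and 2856 to 3134 CPM at the 3 rising levels, with 1 higher and 3 lower at 94 dB. Lateral wall markers summed to 9472 to 10971, 9152 to 9956 and 9562 to 10574 CPM, with 1 higher and 4 lower at 94 dB and 1 lower at 105 dB. Schwann cell markers, Egr2 among them, summed to 3308 to 5397, 2715 to 3741 and 2784 to 3856 CPM, with 1 higher and 4 lower at 94 dB and 1 lower at 105 dB. Endothelial markers summed to 628 to 664, 647 to 701 and 649 to 685 CPM, with 3 higher and 1 lower at 94 dB and 2 higher at 105 dB. Bone cell markers summed to 8893 to 10578, 8953 to 10786 and 9016 to 11875 CPM, with 2 higher and 2 lower at 94 dB and 1 lower at 105 dB. Skeletal muscle markers summed to 6880 to 10526, 5836 to 11495 and 8724 to 11304 CPM, with 0 called by edgeR or DESeq2 and 0 at an unadjusted p under 0.05 in any comparison.

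Among the blood and immune lists, macrophage and monocyte markers summed to 1657 to 2361, 1955 to 2943 and 1915 to 2360 CPM at the 3 rising levels, with 4 higher and 1 lower at 94 dB and 1 lower at 105 dB. Neutrophil markers summed to 8433 to 10428, 8580 to 16440 and 9321 to 11105 CPM, with 5 higher at 94 dB and 1 higher at 105 dB. T cell markers summed to 46.3 to 57.9, 56.7 to 65.1 and 56.4 to 59.8 CPM, with 2 higher at 94 dB. Erythroid markers summed to 18579 to 22773, 19318 to 32917 and 22806 to 31927 CPM, so that every 105 dB library lay above every 70 dB library, with 4 higher and 1 lower at 94 dB and 2 higher at 105 dB. The part of these cell types in the Nr4a levels was not tested. Without 94 dB replicates 3 and 4, which had the most haemoglobin, the log2 fold changes at 94 dB were 2.25 for Nr4a1 (adjusted p = 0.00287), 1.71 for Nr4a3 (adjusted p = 0.0295) and 0.60 for Nr4a2.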

How the data were processed

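Whole-number read counts per gene were deposited as a table with 1 column per library. They were made on mm10 with CASAVA, STAR and featureCounts (version 1.5.0-p3), per the submitters' processing notes. The sources used here do not give the annotation, strand or multi-mapping settings. Each column was matched to its sample by name. Symbols and positions are from GENCODE M21 on GRCm38, the same assembly as mm10 (35474 of 35496 genes matched).

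The deposited counts were tested with edgeR 4.0.16 in R 4.3.3. Genes kept by filterByExpr (minimum count 10; 19497 genes with 99.9% of counts) were scaled by TMM factors, and glmQLFit was run on 12 libraries with 1 mean for each noise level, which leaves 9 residual degrees of freedom (common BCV 0.133). Contrasts were tested by glmQLFTest with Benjamini-Hochberg adjustment across the genes kept, and a gene was called at an adjusted p at or under 0.05. Ratios between members were tested by two-sided exact permutation. The fit was tested on simulated data first.

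Replicate numbers did not pair libraries: 3 of 12 same-number pairs had a correlation of deviations over 0.1. The number in the library code differs from the Rep number for 105 dB replicates 3 and 4 (coded 4 and 5), and of 10 pairs that share a code number 4 were over 0.1; the replicate block used the Rep numbers. No library was a duplicate of another (chi-square per degree of freedom within groups at least 12.3). The members and lists were chosen with earlier results of these data known. Genes named besides the members were cell type markers, neighbours within 100 kb, the 5 genes most like each member, and in each pathway list the 4 with the smallest p at 105 against 70 dB; others are marked where named, and 1 gene that the rule names is not reported here. Alternatives were DESeq2 1.42.0 and its size factors, upper-quartile factors, other filters, a fit of 8 libraries, a replicate block, GC and length trends removed, and libraries left out. Protein sequences were not used here.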

Additional observations from a re-analysis of the deposited data

Results flagged for a closer look

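In 126 groups of 4 libraries (42 named genes at 3 levels), 12 had a library far from the other 3, where chance gives about 1 in 20. The value given is the gap to the nearest library divided by the range of the group. In the Nr4a family this was Nr4a3 at 105 dB (0.863), where replicate 3 had 20.2 CPM and the others 27.8 to 29.0 CPM; replicate 3 was also the lowest 105 dB library for Nr4a1 and Nr4a2. Other nuclear receptors were Nr1d1 at 70 dB (0.911), with replicate 1 at 187 CPM and the others at 135 to 140 CPM, Nr1d1 at 94 dB (0.909), with replicate 4 low, and Nr1d2 at 105 dB (0.919), with replicate 3 low. Ret at 70 dB (0.905) rested on replicate 4. Fosb at 70 dB (0.947) was highest in replicate 2, with 1.96 CPM against 0.984 to 1.04 CPM in the others. Elk1 at 70 dB (0.876) was highest in replicate 1, and Spsb1 at 70 dB (0.919) was lowest in replicate 4. Tsc22d3 at 94 dB (0.831) was highest in replicate 2. Among neighbours of Nr4a1, Acvr1b at 94 dB (0.885) was lowest in replicate 4, Atg101 at 105 dB (0.896) was highest in replicate 3 and Gm35853 at 70 dB (0.886) was highest in replicate 3.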

How the results depend on the processing

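Nr4a1 and Nr4a3 were called against 70 dB in all 22 alternatives at both levels. Their highest adjusted p was 0.00305 and 0.0295 at 94 dB and 0.00558 and 0.0394 at 105 dB, and neither was called between 105 and 94 dB in any of the 22. The call of Nr4a2 at 94 dB ended with upper-quartile factors (adjusted p = 0.0638), no filter (0.0908), a fit of the 8 libraries compared (0.0669) and 94 dB replicates 3 and 4 left out (0.0796). With 1 library left out its adjusted p ran between 0.0257 and 0.121, and was over 0.05 without 70 dB replicates 2 or 4, 94 dB replicates 1, 2 or 3, or 105 dB replicates 2, 3 or 4. At 105 dB Nr4a2 passed with DESeq2 (0.0304). The sign of Nr4a2 between 105 and 94 dB turned without 94 dB replicates 3 and 4 (adjusted p = 0.933) and without 94 dB replicate 4 or 105 dB replicate 1 (range of adjusted p with 1 library left out 0.600 to 0.991). The cause was not tested.

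With a replicate block, which the numbers do not warrant as a pairing, Nr4a2 passed at 105 dB (adjusted p = 0.0473, and 0.0262 with GC and length trends removed as well), and 479 and 738 genes were called there. No call of Nr4a1 or Nr4a3 changed with the block.

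Genes called at 94 dB numbered 3131 with GC and length trends removed and 1610 without replicates 3 and 4. At 105 dB they numbered 523 with no filter, 891 with DESeq2 and 126 to 399 with 1 library left out, with 126 without 105 dB replicate 2, 149 and 191 without 70 dB replicates 4 and 1, and 187 without 105 dB replicate 3. In the comparison of 105 with 94 dB they numbered 1859 with GC and length trends removed, 1988 with the block as well, 217 without 94 dB replicates 3 and 4 and 1650 to 3798 with 1 library left out. With upper-quartile factors 2329 genes were higher and 2847 lower at 94 dB, against 2716 and 2369 with TMM factors. Signs turned for Rps6ka3 at 94 dB with the trends removed (adjusted p = 0.925; 0.922 with the block), for Stx17 at 105 dB likewise (0.8293; 0.837), and for Grasp at 105 dB without 70 dB replicate 2 (range of adjusted p 0.466 to 0.938). Of the other named genes 48 values lost a call and 25 gained one, of 1319. No ratio passed in any of 96 settings, but with 1 library left out this was fixed in advance, as 35 assignments allow no p under the threshold. Those settings show only the size and direction of the differences. With 1 library left out the direction of the ratio differences held, except for Nr4a3 to Nr4a1 between 105 and 94 dB. That difference ran from -0.0099 to 0.161. The lowest count of a member in any library was 101.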
